A study of Mus musculus with 14 samples.

Results

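The nuclear-encoded subunits of the respiratory chain and the ATP synthase were followed in 3 mouse stem cell lines treated with STM2457, a small-molecule inhibitor of METTL3, the methyltransferase that writes N6-methyladenosine (m6A) into RNA. Members were taken by symbol: the NDUFA, NDUFB, NDUFC, NDUFS and NDUFV genes, the SDH genes, Cyc1 and the UQCR genes, the listed COX genes, and the genes whose symbol begins with Atp5, without assembly factors. Of 55416 gene identifiers in the count table, 81 protein-coding identifiers belonged to the set. There were 35 in complex I, 4 in complex II, 9 in complex III, 13 in complex IV, 18 in complex V (the ATP synthase) and 2 in the Ndufa4 and Ndufa4l2 pair, which carry a complex I name although NDUFA4 is now placed at complex IV. A filter on low counts kept 79 of the 81 and 18430 genes in all. Cox4i2 and a second identifier of Atp5o, which had no count in any library, were not tested. Atp5s, matched by its name, encodes a coupling factor and not a structural subunit.

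The libraries came from epiblast stem cells (EpiSC), trophoectoderm stem cells (TSC) and extraembryonic endoderm stem cells (XEN). Each line was treated with 50 µM STM2457 for 12 h or was kept as a DMSO control, with 2 STM2457 and 2 DMSO libraries in EpiSC, 2 and 2 in TSC, and 3 and 3 in XEN. All lines are labelled as hybrids of Mus molossinus and Mus musculus. EpiSC libraries of both treatments carried the genotype XmolXmus-<delta>Tsix, whereas TSC and XEN were WT, and each line had its own medium. Line therefore cannot be told apart from genotype, medium or library composition. Each line name stands for 1 line, and no label says whether replicates were separate cultures. The p-values therefore measure the spread between these libraries, which may be technical. For each gene that spread was estimated from all 14 libraries together, so EpiSC and TSC p-values also rest on the spread in XEN. Chi-square per degree of freedom between replicates was 10.3 to 26.8 in XEN groups and 2.25 to 5.32 in EpiSC and TSC groups.

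In the respiratory chain, complex I takes electrons from NADH and complex II takes them from succinate, which it oxidises in the citric acid cycle. Both reduce ubiquinone, complex III passes the electrons to cytochrome c, complex IV reduces oxygen, and the ATP synthase uses the proton gradient to make ATP. Complex II is built from nuclear-encoded subunits alone. The other complexes also need subunits made inside the mitochondrion, so that the nuclear and mitochondrial genomes both contribute to each.

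Total counts ran from 17909934 to 21097380 in EpiSC and TSC libraries and from 6826496 to 10024628 in XEN libraries. Mitochondrial ribosomal RNA took 12.0 to 16.0% of counts in XEN libraries, against 0.0366 to 0.0505% in the others. The subunit genes took 1.02 to 1.05% of counts in EpiSC STM2457 libraries and 1.22 to 1.25% in EpiSC DMSO libraries, 1.07 to 1.09% in TSC STM2457 and 1.18 to 1.22% in TSC DMSO, and 0.858 to 0.881% in XEN STM2457 and 0.760 to 0.989% in XEN DMSO. XEN DMSO replicate 2, at 0.760%, stood apart from the other XEN libraries. The marker lists of the 3 stem cell types were highest in the line they name: summed epiblast markers reached 1015 to 1283 CPM in EpiSC, trophoblast markers 2818 to 2997 CPM in TSC and primitive endoderm markers 34171 to 43808 CPM in XEN. Summed fibroblast markers were 43.1 to 45.3 CPM in EpiSC STM2457 and 49.2 to 56.3 CPM in EpiSC DMSO libraries, and summed epiblast markers were 1015 to 1119 CPM in EpiSC STM2457 and 1238 to 1283 CPM in EpiSC DMSO libraries, with 4 of 7 negative. The part of either in the EpiSC results was not tested. The mRNA of Mettl3, whose protein is the drug's target, gave log2 fold changes of -0.24 in EpiSC, -0.15 in TSC and -0.13 in XEN, none past the threshold (adjusted p = 0.439, 0.699 and 0.636), which does not check the drug.

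In EpiSC, 4 of 79 subunit genes fell after STM2457 and none rose (edgeR quasi-likelihood F test, Benjamini-Hochberg adjusted p under 0.05 over all 18430 genes), while 1.68% of all tested genes were called (1.28% higher and 0.402% lower). They were Sdhb and Sdha, the iron-sulfur and flavin subunits that form the catalytic head of succinate dehydrogenase, Cyc1, the cytochrome c1 of complex III, and Ndufv1, the subunit of complex I that binds NADH and flavin. At an unadjusted p under 0.05, 26 members were lower and none higher, beside 6.12% and 8.71% of all tested genes. The median log2 fold change of the 79 was -0.22, against 0 over all tested genes, with 7 positive values. Levels are given as CPM, counts scaled to a common library total after TMM adjustment. In bulk RNA, fewer cells of a type and less RNA per cell cannot be told apart.

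In EpiSC, Sdhb had 69.0 and 66.8 CPM in STM2457 libraries, against 113 and 113 CPM in DMSO libraries (log2 fold change -0.73, SE 0.14, adjusted p = 0.0154). The EpiSC groups did not overlap, and the gap was many times the difference between replicates. Cyc1 had 125 and 129 CPM in STM2457 libraries, against 193 and 199.7 CPM in DMSO libraries (log2 fold change -0.63, SE 0.11, adjusted p = 0.00733). Ndufv1 had 72.6 and 71.9 CPM in STM2457 libraries, against 108 and 108 CPM in DMSO libraries (log2 fold change -0.58, SE 0.12, adjusted p = 0.0223). Both EpiSC STM2457 libraries lay below both DMSO libraries for each gene. Sdha had 169.6 and 174 CPM in STM2457 libraries, against 252 and 247 CPM in DMSO libraries (log2 fold change -0.54, SE 0.12, adjusted p = 0.0365), again without overlap. With any 1 of the 4 EpiSC libraries left out no member was called, the adjusted p of these 4 genes then lying between 0.106 and 0.306, and their log2 fold changes between -0.76 and -0.53. Without XEN DMSO replicate 2, which is no EpiSC library, 15 members were called lower in EpiSC. Without any 1 of the 4 TSC libraries 3 were, Sdha then having an adjusted p of 0.0603 to 0.0735. A fit of the EpiSC libraries alone called 46 lower and DESeq2 15. The called shares of all tested genes given above are those of the main fit, and these fits have their own, not given here. Scaling to ribosomal protein genes, which shifted the median of all genes by 0.12 in EpiSC, left Sdhb alone called and a member median of -0.094.

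**Figure D1:**
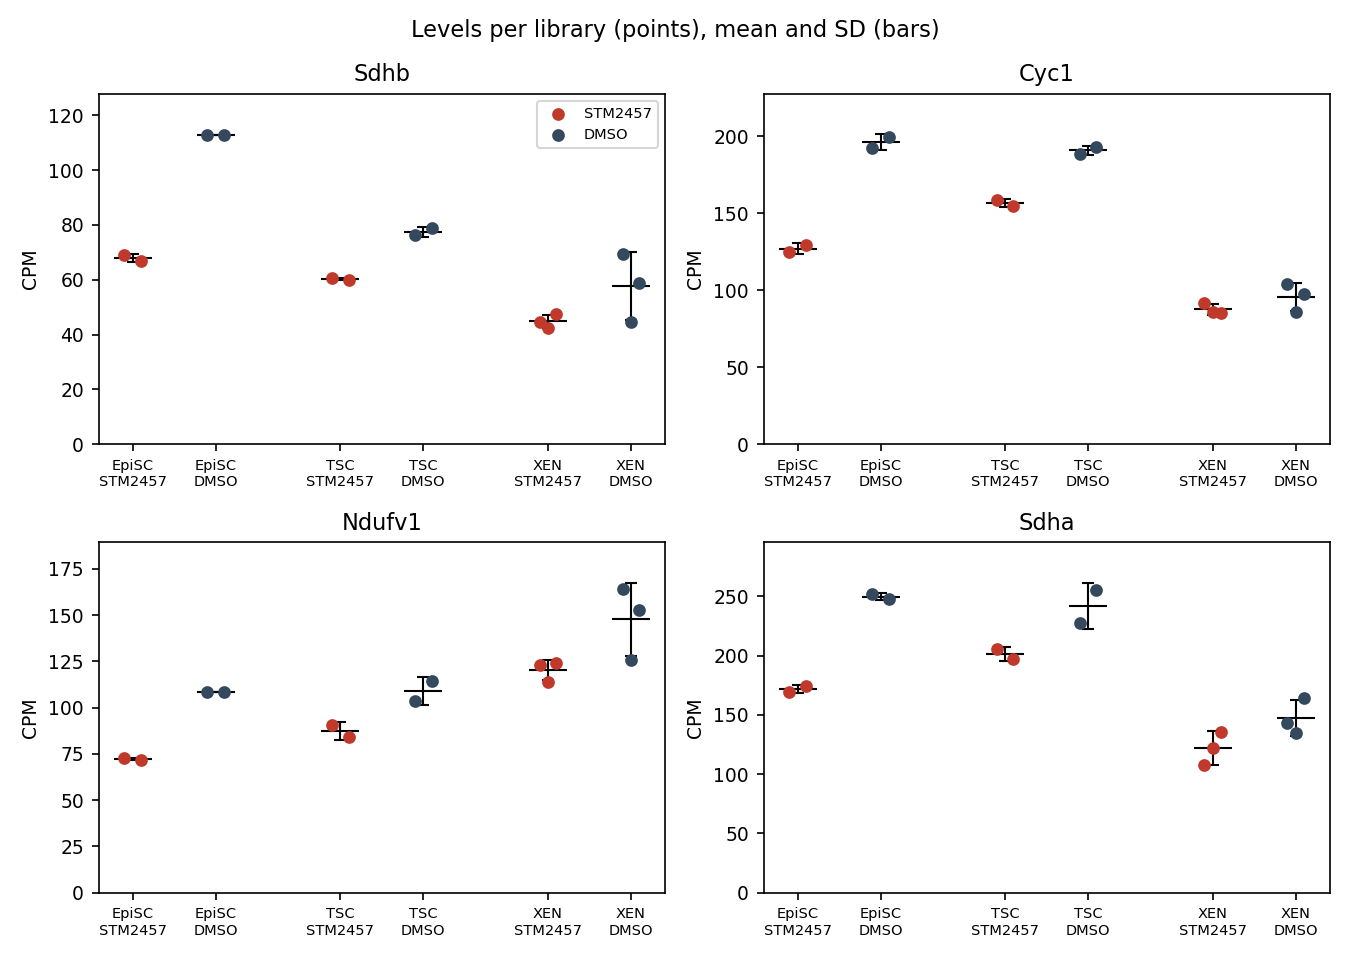
Level in CPM (vertical axis) of Sdhb, Cyc1, Ndufv1 and Sdha in each library, with STM2457 left of DMSO within each line. Points are libraries, and bars give the mean and SD (n = 2 in EpiSC and TSC, n = 3 in XEN); the EpiSC and TSC groups do not overlap for any of the 4 genes, whereas XEN groups overlap for Sdhb, Cyc1 and Sdha and do not for Ndufv1.

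Promoter windows of 5 members that fell are shown because genes of the respiratory chain are known to be driven by nuclear respiratory factors; Uqcrc1 and Ndufa9 fell, with 18 others, in the mean over the 3 lines. RefSeq windows on GRCm38.p6, 250 bases before to 50 bases after a start, matched 65 of the 80 members looked for, and 14 of the 20 that fell in that mean. Both strands were searched for GCGCANGCG (the NRF1 core), CCGGAAG (the core of ETS factors such as GABPA) and AAGATGGCG (a YY1 motif); overlapping matches were allowed. At least 1 motif was in 33 of 65 member windows (50.8%) and 10 of the 14 called ones (71.4%), against 20.3% of 17491 protein-coding windows of the same length. Those protein-coding windows were not limited to genes tested here. NRF1 letters were in 29.2% of member windows and 8.83% of protein-coding windows, ETS letters in 23.1% and 11.9%, and YY1 letters in 9.23% and 1.94%. Of the 14 called windows, 4 had NRF1 letters (28.6%), 3 had ETS letters (21.4%) and 3 had YY1 letters (21.4%). For NRF1 and ETS these shares were near those of all member windows. Capitals mark matches in the 5 windows listed here, given 5′ to 3′ along the gene: Sdha (chr13:74350191-74350490, minus strand) has 3 NRF1 matches, Uqcrc1 (chr9:108936398-108936697, plus strand) has 3 of which 2 overlap, Sdhb (chr4:140961021-140961320, plus strand) has 1 ETS match, Ndufa9 (chr6:126849095-126849394, minus strand) has 1 YY1 match, and Ndufv1 (chr19:4012706-4013005, minus strand) has none of these letters. A match is a description and not a binding site.
Sdha: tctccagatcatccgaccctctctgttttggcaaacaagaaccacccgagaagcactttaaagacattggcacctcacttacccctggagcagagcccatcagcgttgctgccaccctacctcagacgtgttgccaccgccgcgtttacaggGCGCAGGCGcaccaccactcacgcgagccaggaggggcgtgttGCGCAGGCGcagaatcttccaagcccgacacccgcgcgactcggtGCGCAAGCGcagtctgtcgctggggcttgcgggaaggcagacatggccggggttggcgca
Uqcrc1: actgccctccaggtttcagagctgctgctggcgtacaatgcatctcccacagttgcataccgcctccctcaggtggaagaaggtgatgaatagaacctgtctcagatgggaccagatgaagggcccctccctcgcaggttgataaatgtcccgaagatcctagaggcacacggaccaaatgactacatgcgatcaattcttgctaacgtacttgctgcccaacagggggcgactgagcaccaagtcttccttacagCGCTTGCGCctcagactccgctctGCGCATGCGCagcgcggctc
Sdhb: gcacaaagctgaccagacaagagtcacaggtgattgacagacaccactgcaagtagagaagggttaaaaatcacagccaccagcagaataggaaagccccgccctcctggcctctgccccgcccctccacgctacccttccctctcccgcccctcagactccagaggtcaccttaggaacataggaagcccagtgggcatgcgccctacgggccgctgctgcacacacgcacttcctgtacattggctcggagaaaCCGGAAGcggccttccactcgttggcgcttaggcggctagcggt
Ndufa9: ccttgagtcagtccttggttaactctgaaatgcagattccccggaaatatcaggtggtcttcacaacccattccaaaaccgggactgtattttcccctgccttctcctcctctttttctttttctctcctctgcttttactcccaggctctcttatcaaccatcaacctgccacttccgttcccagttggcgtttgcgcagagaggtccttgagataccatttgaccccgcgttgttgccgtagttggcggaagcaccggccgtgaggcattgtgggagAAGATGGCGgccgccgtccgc
Ndufv1: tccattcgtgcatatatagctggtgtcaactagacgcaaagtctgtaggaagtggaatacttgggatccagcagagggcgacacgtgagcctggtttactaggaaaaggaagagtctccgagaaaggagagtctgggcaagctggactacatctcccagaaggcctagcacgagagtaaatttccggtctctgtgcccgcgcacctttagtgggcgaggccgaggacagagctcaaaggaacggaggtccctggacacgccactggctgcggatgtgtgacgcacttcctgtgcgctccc

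The remaining members of complex II did not pass the test in EpiSC. Sdhc and Sdhd anchor the complex in the inner membrane. Sdhc had 86.8 and 82.4 CPM in STM2457 libraries, against 98.3 and 100.3 CPM in DMSO libraries (adjusted p = 0.481), and Sdhd had 115 and 123 CPM in STM2457 libraries, against 148 and 145 CPM in DMSO libraries (adjusted p = 0.170). Neither gene's groups overlapped, so the 4 subunits of the complex lay on the same side, with log2 fold changes between -0.73 and -0.23. Over all complexes, 58 of 79 members had both STM2457 libraries below both DMSO libraries in EpiSC and 1, Cox7c of complex IV, had them above, beside 26.5% and 29.6% of all tested genes. Scaling to ribosomal protein genes gave 37 lower and 5 higher without overlap, beside 14.3% and 42.6% of all tested genes. In the ATP synthase 15 of 17 members were lower without overlap, and in complex IV 5 of 12.

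**Figure D2:**
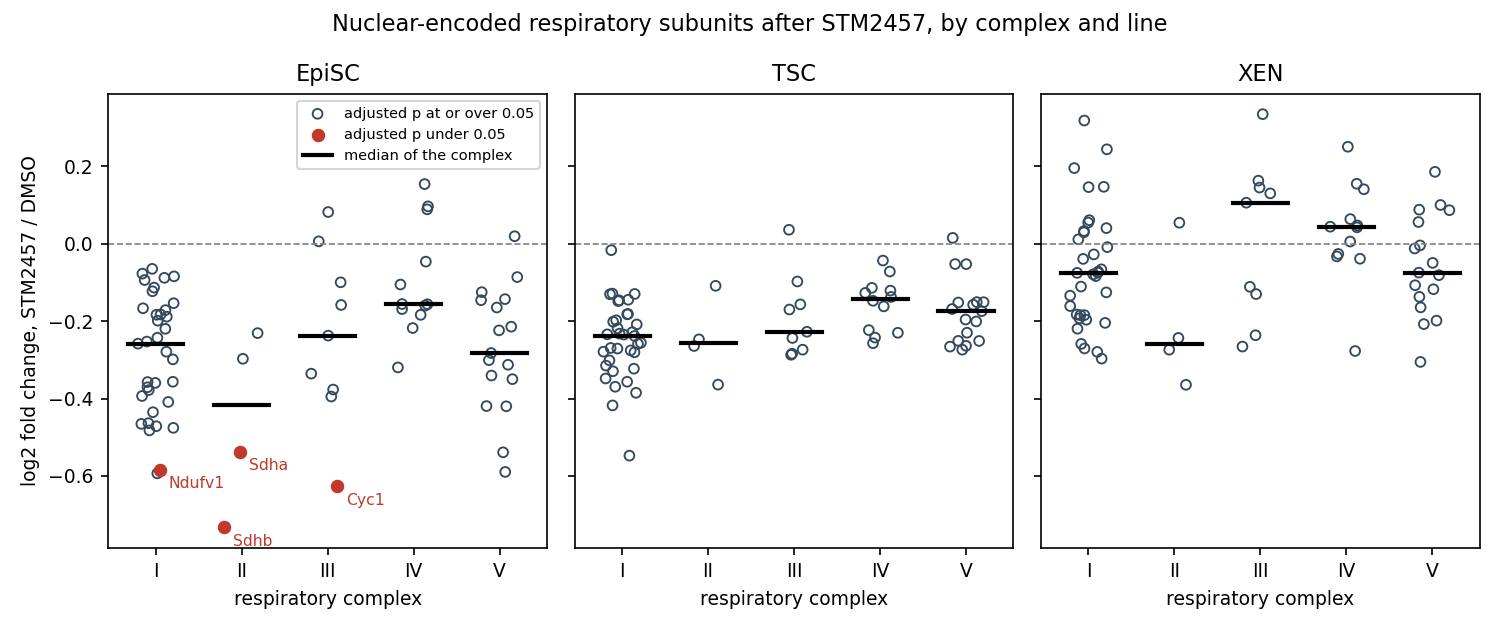
Log2 fold change of STM2457 over DMSO (vertical axis) of each tested subunit gene by complex (horizontal axis), in EpiSC, TSC and XEN. Open points did not pass adjusted p under 0.05, filled points did, and black lines are medians of a complex; the filled points are Sdha, Sdhb, Cyc1 and Ndufv1 in EpiSC, and complex IV medians lie nearer 0 than complex II medians in each panel.

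In TSC the members were shifted by a like amount, with a median of -0.22 against 0 over all tested genes, but none passed the edgeR test, in which 0.966% of all tested genes were called (0.836% higher and 0.130% lower). At an unadjusted p under 0.05, 15 members were lower and none higher, beside 5.79% and 7.65% of all tested genes. DESeq2 called 3 lower (Ndufa8, Ndufb4 and Cyc1), and an edgeR fit of the TSC libraries alone called 46 lower. Those counts are not to be set beside the 0.130% of the main fit, and the shares of all genes in those fits are not given here. In 68 of 79 members both STM2457 libraries lay below both DMSO libraries and in none above, beside 27.8% and 27.9% of all tested genes. Scaling to ribosomal protein genes gave 41 lower and 3 higher without overlap, beside 13.9% and 40.5% of all tested genes. The member median was then -0.082 and that of all genes 0.11. Sdhb had 60.5 and 60.0 CPM in STM2457 libraries, against 76.2 and 78.8 CPM in DMSO libraries (log2 fold change -0.36, SE 0.14, adjusted p = 0.258). Cyc1 had 159 and 155 CPM in STM2457 libraries, against 189 and 193 CPM in DMSO libraries (log2 fold change -0.28, SE 0.11, adjusted p = 0.238). Neither overlapped between groups. Ndufb4, an accessory subunit of the membrane arm of complex I, had the smallest p of that complex, with 24.9 and 23.4 CPM in STM2457 libraries, against 31.9 and 31.2 CPM in DMSO libraries (log2 fold change -0.39, SE 0.11, adjusted p = 0.129). Reads could be shared here, since 37.0% of the 50-base windows of its transcript occur in other annotated genes. Markers of primitive endoderm summed to 191 to 195 CPM in TSC STM2457 and 172 to 175 CPM in TSC DMSO libraries, with 8 of 9 positive, and their part was not tested.

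In XEN the median was -0.05, 30 of 79 members were positive, and none passed the edgeR test, while 4.15% of all tested genes were called (3.07% higher and 1.07% lower). At an unadjusted p under 0.05, 7 members were lower and 1 higher, beside 7.51% and 9.82% of all tested genes. Groups did not overlap for 3 members that were lower (Ndufv1, Ndufb4 and Atp5f1) and 1 that was higher (Cox7a2l), beside 7.03% and 8.36% of all tested genes. Scaled to ribosomal protein genes, 13 members were lower without overlap and 2 higher, beside 5.96% and 5.10% of all tested genes. Sdhb had 44.6, 42.5 and 47.4 CPM in STM2457 libraries, against 69.6, 44.7 and 58.8 CPM in DMSO libraries (log2 fold change -0.36, SE 0.12, adjusted p = 0.118); the lowest DMSO value was that of replicate 2, and it lay within the STM2457 range. Ndufv1 had 123, 114 and 124 CPM in STM2457 libraries, against 164, 126 and 153 CPM in DMSO libraries (log2 fold change -0.30, SE 0.10, adjusted p = 0.114). Its groups did not overlap. Atp5f1, the b subunit of the peripheral stalk of the ATP synthase, had 186, 156 and 179.9 CPM in STM2457 libraries, against 239.5, 187 and 218 CPM in DMSO libraries (log2 fold change -0.31, SE 0.10, adjusted p = 0.115), and its DMSO replicate 2 lay barely above the highest STM2457 library. XEN STM2457 and DMSO libraries of the same number deviated together over all genes. Over the members alone those correlations were 0.041, 0.127 and 0.569 for replicates 1, 2 and 3. STM2457 replicate 1 and DMSO replicate 2 gave 0.237 there. With the replicate number as a block 7 members were called lower, namely Sdhb, Atp5f1, Ndufv1, Ndufs1, Sdha, Uqcrc2 and Uqcrc1. With the XEN libraries alone the block left 1, Atp5f1, and DESeq2 without a block called 5 (Sdhb, Atp5f1, Ndufv1, Ndufs1 and Sdha). Called shares of all tested genes in these alternative fits are not given here. Leaving out XEN DMSO replicate 2 gave 11 called lower with a median of -0.15, and leaving out XEN DMSO replicate 1 gave 1 called higher (Uqcrfs1), none lower and a median of 0.05. The Sdhb log2 fold change was -0.51 without DMSO replicate 2.

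Averaged over the 3 lines, 20 of 79 members fell and none rose after STM2457, while 13.4% of all tested genes were called (7.78% higher and 5.62% lower; edgeR). The median was -0.16, against -0.0029 over all tested genes. By complex, the calls were 11 of 35 in complex I, 2 of 4 in complex II, 3 of 9 in complex III, 4 of 17 in the ATP synthase and 0 of 12 in complex IV. Sdhb changed most (log2 fold change -0.49, SE 0.08, adjusted p = 0.000684). Ndufv1 followed (log2 fold change -0.40, SE 0.07, adjusted p = 0.000842), then Ndufb6 (log2 fold change -0.37, SE 0.09, adjusted p = 0.00832) and Ndufa9 (log2 fold change -0.37, SE 0.09, adjusted p = 0.0136), accessory subunits of complex I. Sdha (-0.36, adjusted p = 0.00222), Cyc1 (-0.35, adjusted p = 0.000910), and the core proteins Uqcrc2 (-0.31, adjusted p = 0.00873) and Uqcrc1 (-0.29, adjusted p = 0.00654) of complex III were called as well. So were Atp5f1 (-0.29, adjusted p = 0.00810) and the alpha subunit Atp5a1 (-0.28, adjusted p = 0.0130) of the ATP synthase. Each of these fell by the test in the mean over lines, and 19 of the 20 called members were negative in all 3 lines, which make up that mean. Of 50-base windows, 34.1% of Ndufb6, 38.7% of Atp5f1 and 24.8% of Uqcrc2 also occur in other genes, and 0% of Sdhb, Sdha, Ndufv1, Cyc1 and Uqcrc1. For Ndufb6 and Uqcrc2 the matches, in Smim27 and Pdzd9, are on the opposite strand only. With the replicate block 40 were called lower, and the share of all tested genes called in that fit is not given here. Scaling to ribosomal protein genes left 6 (Sdhb, Ndufv1, Ndufb6, Ndufa9, Sdha and Cyc1), with a median of -0.08 against 0.07 over all tested genes. The calls were 41 without XEN DMSO replicate 2, 8 without TSC DMSO replicate 2, 10 without TSC STM2457 replicate 2, 13 without TSC STM2457 replicate 1, 11 without EpiSC DMSO replicate 1 and 12 without each of the other 3 EpiSC libraries.

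Calls were also counted by role, to be read beside the 5.62% of all tested genes called lower in the mean over lines. Of the 7 conserved core subunits of complex I, 4 were called lower in the mean over lines, Ndufv1 and Ndufs1 among them, with a median of -0.24, and of 28 accessory subunits 7 were, with a median of -0.20. In complex III, 3 of the 4 catalytic and core subunits (Cyc1, Uqcrc1 and Uqcrc2) were called and 0 of the 5 small accessory subunits, with medians of -0.30 and -0.07. Ndufs1, which carries iron-sulfur clusters, gave -0.27 (adjusted p = 0.0147). In the F1 head of the ATP synthase, Atp5a1 and the catalytic beta subunit Atp5b (-0.20, adjusted p = 0.0493) were called and Atp5c1, Atp5d and Atp5e were not. The Atp5b call was kept in 6 of 20 alternatives: it was lost with each library left out except XEN DMSO replicate 2, and with ribosomal scaling, at an adjusted p of up to 0.320. The Ndufs1 call was kept in 15 of 20, with an adjusted p of up to 0.142. The difference between core and accessory subunits was not tested.

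The catalytic subunit of complex III that was not called was Uqcrfs1, the Rieske iron-sulfur protein. In EpiSC it had 135 and 134 CPM in STM2457 libraries, against 116 and 138 CPM in DMSO libraries. In TSC it had 149 and 149 CPM in STM2457 libraries, against 136 and 155 CPM in DMSO libraries. In XEN it had 92.2, 90.8 and 102 CPM in STM2457 libraries, against 101, 52.6 and 71.7 CPM in DMSO libraries. The groups overlapped in each line, and its log2 fold changes of 0.08, 0.04 and 0.33 (adjusted p = 0.917, 1.00 and 0.335) made it the 1 member positive in all 3 lines. In complex IV, Cox7a2l, a factor that joins complexes III and IV into supercomplexes, had the smallest p in XEN, with 99.0, 121 and 106 CPM in STM2457 libraries, against 89.4, 86.8 and 98.0 CPM in DMSO libraries (log2 fold change 0.25, SE 0.10, adjusted p = 0.195). The XEN groups did not overlap. Its EpiSC value was 0.10 and its TSC value -0.07.

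The balance between complexes was compared as ratios of summed CPM, which no scaling of a library can change. These ratios were formed after the values had been seen and carry no test. The complex I sum over the complex IV sum was 1.35 and 1.38 in EpiSC STM2457 libraries and 1.51 and 1.53 in EpiSC DMSO libraries. It was 1.38 and 1.35 in TSC STM2457 and 1.44 and 1.44 in TSC DMSO libraries, and 0.956, 0.930 and 0.961 in XEN STM2457 and 1.06, 1.05 and 1.05 in XEN DMSO libraries. The groups did not overlap in any of the 3 lines, and XEN DMSO replicate 2 lay among its group here. Complex V over complex IV was 2.39 and 2.49 in EpiSC STM2457 and 2.72 and 2.88 in EpiSC DMSO libraries, 2.73 and 2.70 in TSC STM2457 and 2.78 and 2.77 in TSC DMSO libraries, and 1.35, 1.30 and 1.31 in XEN STM2457 and 1.48, 1.44 and 1.48 in XEN DMSO libraries. Complex II over complex IV was 0.265 to 0.283 in EpiSC STM2457 and 0.335 to 0.357 in EpiSC DMSO, 0.286 to 0.293 in TSC STM2457 and 0.297 to 0.309 in TSC DMSO, and 0.139 to 0.152 in XEN STM2457 and 0.162 to 0.176 in XEN DMSO libraries. In these 3 ratios all 9 pairs of groups were separated, with the STM2457 libraries lower. The 3 ratios share the complex IV sum as denominator, so the 9 are not separate observations. No ratio without complex IV was formed. Complex IV over complex III was 1.55 and 1.54 in EpiSC STM2457 and 1.43 and 1.35 in EpiSC DMSO libraries, and 1.36 and 1.38 in TSC STM2457 and 1.33 and 1.34 in TSC DMSO libraries. In XEN it was 2.39, 2.35 and 2.53 in STM2457 and 2.30, 2.35 and 2.36 in DMSO libraries, and those groups overlapped. Such a ratio shows unequal change, and a sum is set mostly by its most abundant genes.

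**Figure D3:**
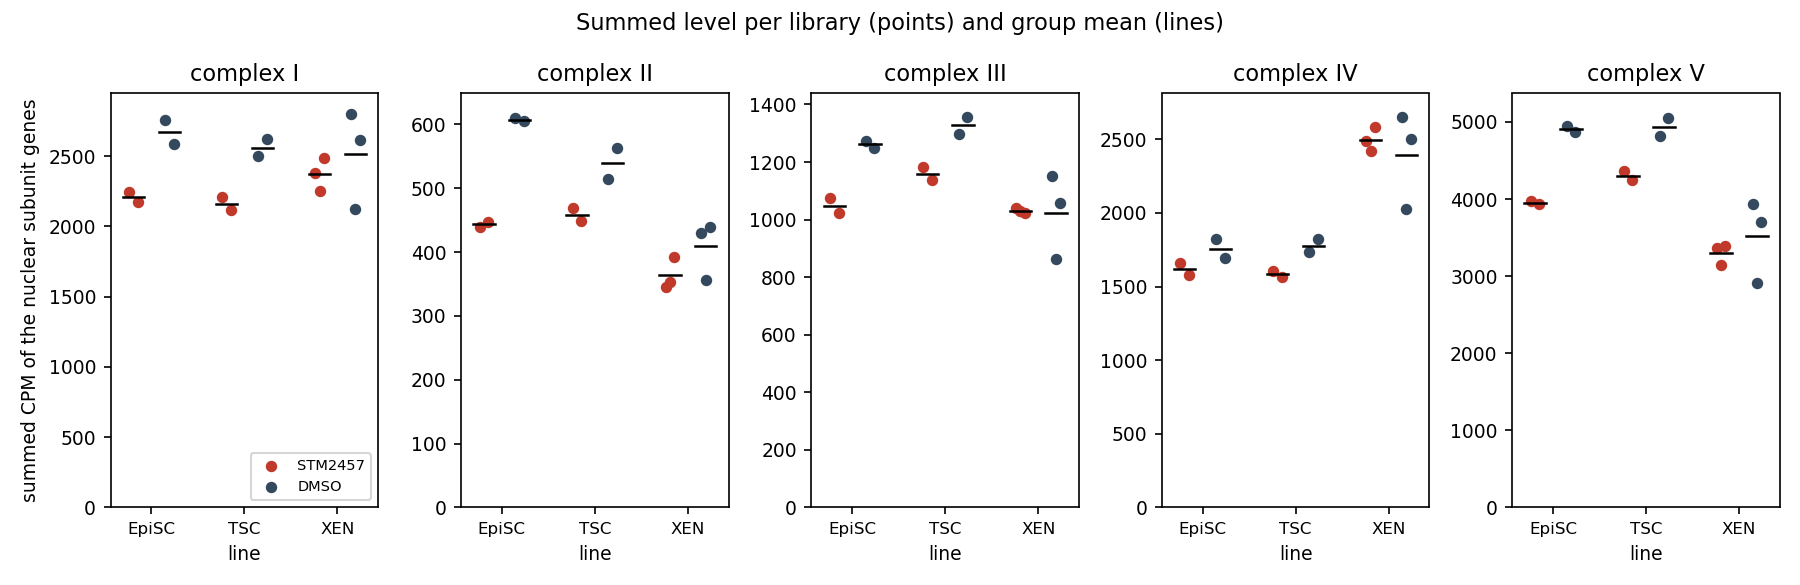
Summed CPM of the nuclear subunit genes (vertical axis, from 0) of complexes I to V, with STM2457 left of DMSO in EpiSC, TSC and XEN. Points are libraries and lines are group means (n = 2, 2 and 3 per treatment); EpiSC and TSC STM2457 points lie below their DMSO points in each complex, while XEN groups overlap and XEN DMSO replicate 2 is its group's lowest point.

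Whether the lines differed in their response was tested directly. No member passed the test of a difference between lines in the effect of STM2457: 0 were called for TSC minus XEN, EpiSC minus XEN and EpiSC minus TSC, beside 0.00543%, 0.0109% and 0.00543% of all tested genes (edgeR). At an unadjusted p under 0.05 the counts were 1, 9 and 1 member, each lower in the line named first, beside 2.69%, 3.02% and 2.00% of all tested genes lower and 2.25%, 3.07% and 2.31% higher at that p. DESeq2 called 0, 1 (Cyc1) and 0. The smallest adjusted p for EpiSC against XEN was 0.572. With the replicate block, 3 members were called lower for EpiSC against XEN: Ndufb3, Atp5g3 and Cyc1.

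Transcript features that the choice of members did not use were set beside the calls. The median length of the principal coding transcript was 1562 bases for the 20 members called in the mean over lines, 732 bases for the 59 not called and 865 bases for all 79, against 3002.5 bases for 14330 tested protein-coding genes. Exon junctions per kilobase had medians of 4.62, 4.26 and 4.46 in those 3 member sets and 2.93 in the protein-coding genes. GGAC, the core of the sequence in which m6A is commonly placed, occurred 3.94, 3.92 and 3.92 times per kilobase, against 4.25. Of the 40 members at or under the median length 4 were called lower, and of the 39 longer members 16 were, beside 5.62% of all tested genes. Median log2 fold changes of the shorter and longer members were 0.008 and -0.16 in XEN, -0.23 and -0.21 in TSC, and -0.22 and -0.26 in EpiSC. No share for other genes of like length is given here. Median mean levels of called and other members were 116 and 99.7 CPM. Across the 79 members, Spearman's rho between length and the mean effect was -0.37, as a description over genes that share libraries. It was -0.47 in XEN, -0.14 in TSC and -0.17 in EpiSC. Length moved with the calls in the mean over lines, and its part in them was not tested.

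**Figure D4:**
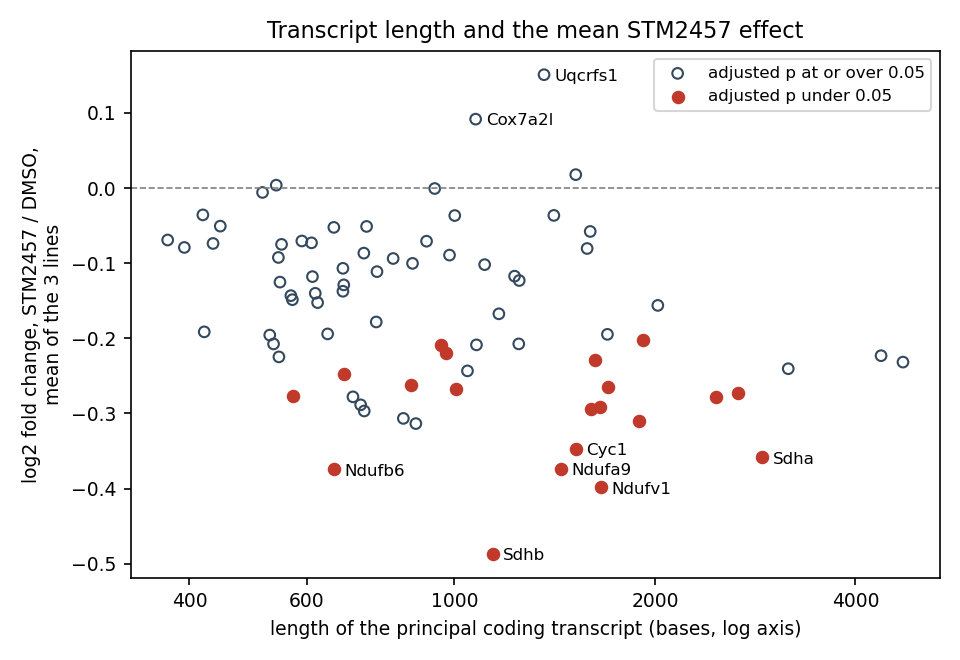
Mean log2 fold change of STM2457 over DMSO across the 3 lines (vertical axis) against the length of the principal coding transcript in bases (log axis) for the 79 tested members. Filled points passed adjusted p under 0.05; 16 of the 20 lie above the median length of 865 bases, and Uqcrfs1 is the highest point.

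Genes around the respiratory chain were read from lists of the same pathway. Called shares are to be read beside the 5.62% lower and 7.78% higher of all tested genes in the mean over lines. These list calls are of the main fit, and unlike the members they were not followed through the other scalings or left-out libraries. Of 20 genes of pyruvate entry and the citric acid cycle, 4 fell and 1 rose in the mean over lines: the fumarate hydratase Fh1 (-0.35, adjusted p = 0.00638), Suclg1 of succinyl-CoA ligase (-0.32, adjusted p = 0.00107), the pyruvate carrier Mpc1 (-0.34, adjusted p = 0.0464) and Dlat of pyruvate dehydrogenase (-0.25, adjusted p = 0.0238) fell, and Ogdh rose (0.35, adjusted p = 0.00253). Of 17 electron carrier and ubiquinone genes 4 fell and none rose, namely Etfb (-0.52, adjusted p = 0.0137), Etfa (-0.35, adjusted p = 0.00237), Etfdh (-0.29, adjusted p = 0.00348) and Coq6 (-0.27, adjusted p = 0.0353). The Etf genes pass electrons from fatty acid oxidation to ubiquinone. In EpiSC alone, Etfa fell (-0.52, adjusted p = 0.0365). Among 14 tested regulators of these genes the coactivators Ppargc1b (0.41, adjusted p = 0.0354) and Pprc1 (0.29, adjusted p = 0.00643) rose and the nuclear receptor Esrra fell (-0.25, adjusted p = 0.0182). Of 6 tested genes of exchange across the mitochondrial membranes the channel gene Vdac2 fell (-0.21, adjusted p = 0.0491), and 1 of 20 glycolysis identifiers, the hexokinase Hk2, rose (0.37, adjusted p = 0.00564).

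The 84 tested cytosolic ribosomal protein genes had medians of -0.15 in EpiSC, -0.14 in TSC and 0.01 in XEN, beside the members' -0.22, -0.22 and -0.05. Glycolysis had medians of 0.004, -0.18 and -0.01. The 13 mitochondrially encoded subunit mRNAs had medians of 0.27, 0.03 and -0.004, with 12 of 13 positive in EpiSC and none called there, so that in EpiSC the nuclear and mitochondrial lists had medians of opposite sign. Their summed level was 11615 to 12744 CPM in EpiSC STM2457 libraries and 9807 to 10392 CPM in EpiSC DMSO libraries. In TSC it was 8858 to 9189 CPM in STM2457 and 9732 to 9893 CPM in DMSO libraries, lower without overlap, and in XEN it was 8071 to 11776 CPM in STM2457 and 10311 to 11176 CPM in DMSO libraries, with overlap.

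Among the DMSO controls, 30 members were higher and 25 lower in TSC than in XEN (edgeR), beside 72.5% of all tested genes called (36.5% higher and 36.0% lower). In EpiSC against XEN 31 were higher and 19 lower, beside 71.7% (36.6% and 35.1%), and in EpiSC against TSC 14 were higher and 13 lower, beside 54.4% (27.4% and 27.0%). These shares of members, in each direction, lay near or under those of all genes. Scaling to ribosomal protein genes, which shifted the median of all genes by -1.04, -0.75 and 0.27, turned the counts into 0 higher and 67 lower in TSC against XEN, 3 and 52 in EpiSC against XEN, and 33 and 1 in EpiSC against TSC. With nuclear protein-coding genes alone the counts were 24 and 29 in TSC against XEN and 29 and 26 in EpiSC against XEN, with a median of -0.10 in TSC against XEN. Of the called members, 28 of the 30 higher in TSC and 19 of the 31 higher in EpiSC than XEN turned negative with the ribosomal scaling, and no other line call turned. The directions that follow are on the TMM scale. A total of 16 members were called lower in both TSC and EpiSC than in XEN, 25 higher in both, and 16 were called in none of the 3 comparisons; the first 2 comparisons share the XEN libraries.

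The catalytic and core subunits of complex III were higher outside XEN on the TMM scale, whereas complex IV had more members lower than higher. Cyc1, Uqcrfs1, Uqcrc1 and Uqcrc2, 4 of 4, were called higher against XEN in both other lines. Scaling to ribosomal protein genes gave negative values for all 4 in TSC and for Uqcrfs1 and Uqcrc1 in EpiSC. Under it Cyc1 (0.24, adjusted p = 0.104) and Uqcrc2 (0.02, adjusted p = 0.877) were positive in EpiSC but no longer called. In complex IV, 7 of 12 were called lower and 1 higher (Cox5a) in TSC, and 5 lower and 2 higher (Cox5a and Cox7b) in EpiSC; 32.05% of the Cox5a windows occur in other genes. Cyc1 had 193 and 199.7 CPM in EpiSC, 189 and 193 CPM in TSC and 104, 86.0 and 97.8 CPM in XEN (log2 fold change 1.03 for EpiSC and 0.99 for TSC, adjusted p = 6.06e-08 and 9.59e-08). EpiSC and TSC overlapped, and XEN lay well below both. Cox8a, a small structural subunit of complex IV, had 165 and 137 CPM in EpiSC, 182 and 171 CPM in TSC and 498, 409 and 457 CPM in XEN (-1.59 and -1.37, adjusted p = 2.35e-09 and 1.39e-08). XEN lay above both other lines. Cox6c, another structural subunit, was -1.20 in EpiSC against XEN. Complex IV over complex III, a ratio that scaling does not change, was 1.43 and 1.35 in EpiSC, 1.33 and 1.34 in TSC and 2.30, 2.35 and 2.36 in XEN DMSO libraries.

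The F1 head of the ATP synthase was also higher outside XEN on the TMM scale, with 5 of 5 subunits called in EpiSC and 4 of 5, without Atp5e, in TSC. Atp5b had 1783 and 1717 CPM in EpiSC, 1576 and 1649 CPM in TSC and 1029, 817 and 932 CPM in XEN (0.92 and 0.80, adjusted p = 9.43e-07 and 4.59e-06); scaling to ribosomal protein genes made the TSC value -0.27. With that scaling each of the 4 called in TSC was negative, and so were Atp5a1, Atp5c1 and Atp5e in EpiSC. Atp5b (0.13, adjusted p = 0.306) and Atp5d (0.19, adjusted p = 0.183) then stayed positive in EpiSC but were no longer called. Atp5d, the delta subunit, gave 0.97 in TSC (adjusted p = 8.29e-07), and -0.09 with that scaling. Atp5f1 gave 1.06 in EpiSC (adjusted p = 2.80e-07), and 0.27 with that scaling, while 38.7% of its 50-base windows occur in other genes. In complex II, Sdhb was higher in EpiSC (0.97 against XEN, 0.54 against TSC, adjusted p = 4.84e-06 and 0.00364) and Sdha was higher than in XEN in both EpiSC (0.76, adjusted p = 1.33e-05) and TSC (0.71, adjusted p = 2.57e-05). With the same scaling Sdhb in EpiSC was 0.19 against XEN (adjusted p = 0.163) and 0.82 against TSC. That scaling made Sdha -0.37 in TSC and -0.04 in EpiSC against XEN.

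**Figure D5:**
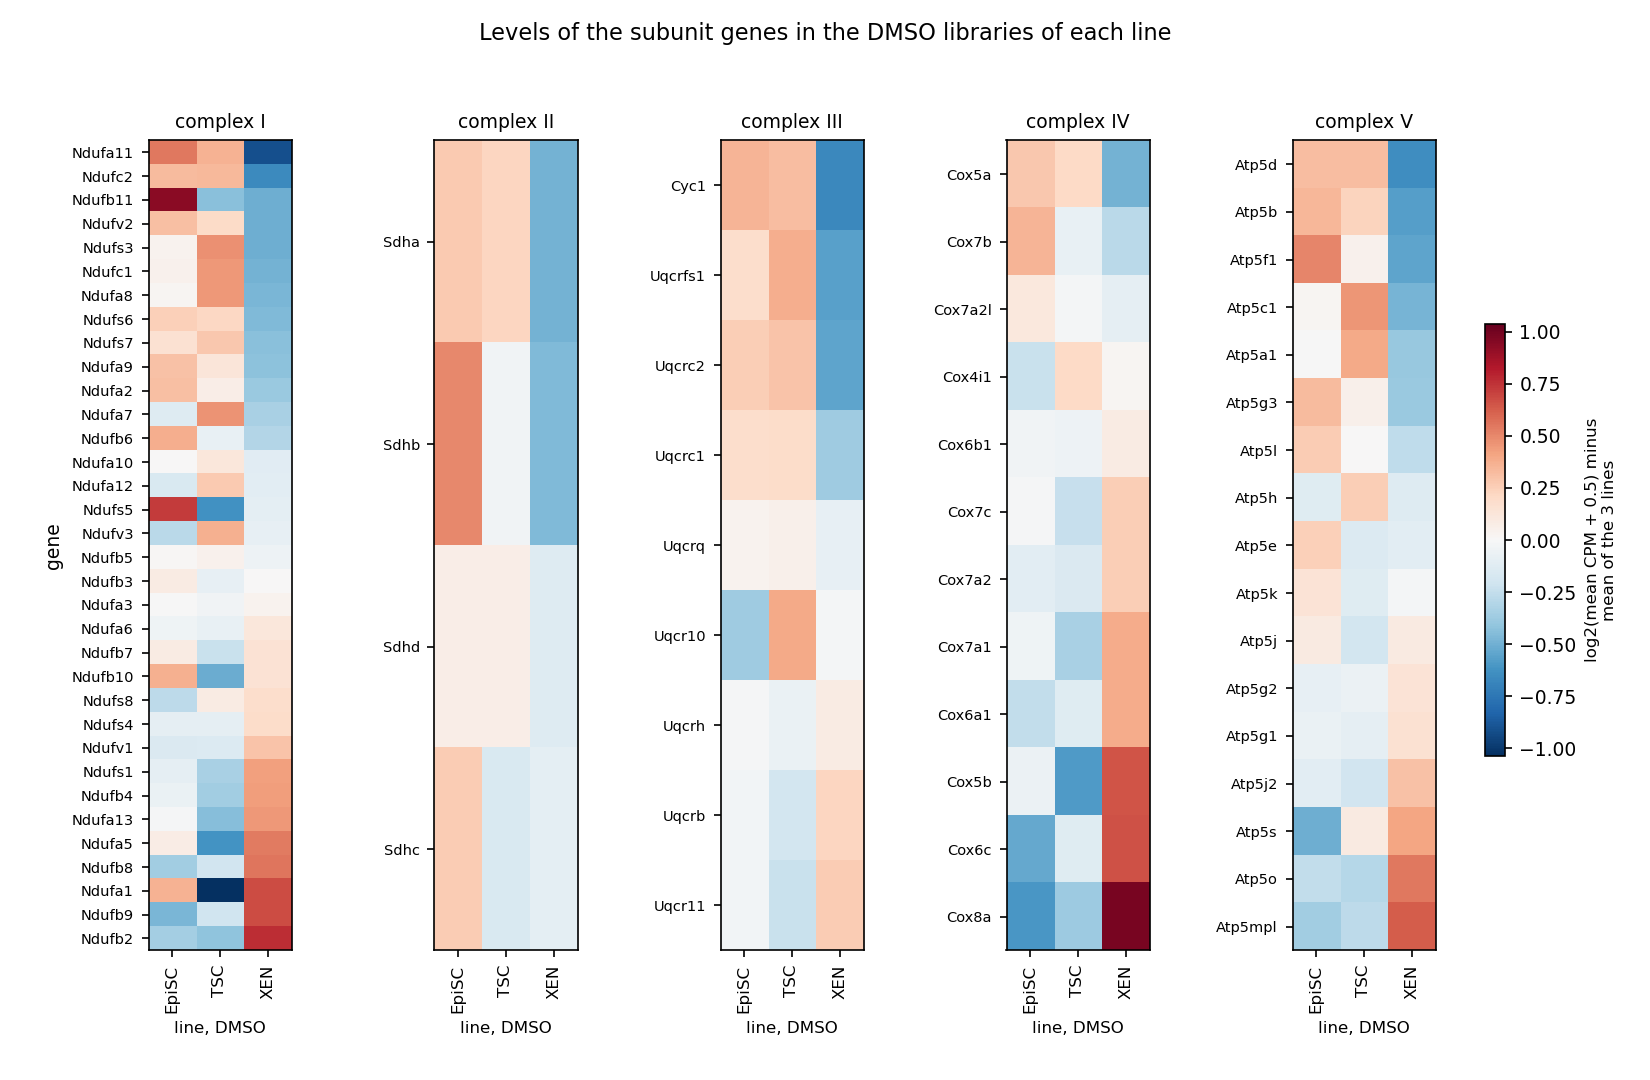
Level of the tested subunit genes, 1 of complex I left out, in the DMSO libraries of EpiSC, TSC and XEN (columns), as log2 of the group mean CPM plus 0.5, minus the mean of the 3 lines (colour), by complex without the Ndufa4 pair, with genes ordered by the XEN value. Cyc1, Uqcrfs1 and Uqcrc2 are blue in XEN and Cox8a, Cox6c and Cox5b red; Ndufb11 is red in EpiSC and Ndufa1 dark blue in TSC.

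Single accessory subunits of complex I also differed between the lines. Ndufa11, of the membrane arm, had 93.1 and 84.1 CPM in EpiSC, 76.8 and 78.4 CPM in TSC and 35.6, 27.2 and 32.7 CPM in XEN (1.48 and 1.28 against XEN, adjusted p = 3.50e-08 and 1.95e-07). XEN was lowest without overlap. Scaled to ribosomal protein genes, Ndufa11 gave 0.69 in EpiSC and 0.22 in TSC against XEN, and the TSC call was lost (adjusted p = 0.190). Ndufc2 gave 1.01 in TSC against XEN (adjusted p = 3.70e-06; -0.05 scaled to ribosomal protein genes), and Ndufb2, read at a low level in each library, gave -1.19 in EpiSC and -1.27 in TSC against XEN (adjusted p = 0.000374 and 0.000219). Ndufs5 had 35.1 and 28.4 CPM in EpiSC and 15.1 and 9.14 CPM in TSC (log2 fold change 1.39, SE 0.22, adjusted p = 3.97e-05), with 31.1% of its windows shared with other genes. Uqcr10 of complex III (-0.77, adjusted p = 0.000237), Ndufv3 (-0.66, adjusted p = 0.00136) and Atp5s (-0.65, adjusted p = 0.0200) were the largest falls in EpiSC against TSC, and Cox5b (0.54, adjusted p = 0.00276) the largest complex IV difference.

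Ndufa1, Ndufb11 and Cox7b lie on the X chromosome, which the study's title names as its subject. Ndufa1 had 55.9 and 50.0 CPM in EpiSC, 21.7 and 17.9 CPM in TSC and 65.8, 56.2 and 76.8 CPM in XEN DMSO libraries, with TSC lowest (1.42 for EpiSC against TSC, -1.75 for TSC against XEN, adjusted p = 2.99e-05 and 1.35e-06). Ndufb11 had 142 and 131 CPM in EpiSC, 50.8 and 53.9 CPM in TSC and 55.0, 41.6 and 52.0 CPM in XEN, with EpiSC highest (1.46 against XEN, 1.38 against TSC, adjusted p = 5.36e-09 and 5.91e-08); TSC and XEN overlapped. Ndufb11 overlaps Rbm10 on the opposite strand, and no source used here names the strand mode of the read counting. Cox7b was higher in EpiSC than in XEN (0.63, adjusted p = 0.000216; -0.15 scaled to ribosomal protein genes) and TSC (0.42, adjusted p = 0.0126). In EpiSC, Ndufa1 had 38.0 and 41.8 CPM in STM2457 libraries, against 55.9 and 50.0 CPM in DMSO libraries (-0.41, adjusted p = 0.361), and in XEN 60.8, 107 and 80.6 CPM in STM2457 libraries, against 65.8, 56.2 and 76.8 CPM in DMSO libraries (0.32, adjusted p = 0.365). The XEN groups overlapped, with STM2457 replicate 2 far above the other libraries. Ndufb11 and Cox7b had log2 fold changes between -0.13 and 0.06 in the 3 lines, none called.

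Among isoform pairs, the tissue-specific members had low levels. Cox4i2, an oxygen-responsive isoform of Cox4i1, had 34 counts in all libraries together and was at most 0.53 CPM, whereas Cox4i1 had 258 ± 14.2 CPM in EpiSC, 351 ± 28.3 CPM in TSC and 308 ± 49.1 CPM in XEN DMSO libraries (SD, n = 2, 2 and 3). Cox7a1, the heart and muscle isoform, ran at 4.22 and 3.49 CPM in EpiSC, 2.91 and 3.21 CPM in TSC and 7.68, 3.08 and 5.37 CPM in XEN, against 98.7 ± 0.879, 96.1 ± 2.45 and 127 ± 22.1 CPM for Cox7a2. Ndufa4l2, the hypoxia-induced paralogue of Ndufa4, was near 0 in XEN (0, 0.162 and 0 CPM), low in TSC (0.291 and 0.753 CPM) and highest in EpiSC (2.88 and 3.58 CPM, 2.62 against TSC, adjusted p = 0.000125). Ndufa4 had 152 and 144 CPM in EpiSC, 111 and 107 CPM in TSC and 215, 115 and 176 CPM in XEN. Atp5g1, Atp5g2 and Atp5g3 encode the same mature c subunit. Of these Atp5g3 was higher in EpiSC and TSC than in XEN (0.71 and 0.44, adjusted p = 0.00124 and 0.0284; -0.05 and -0.61 scaled to ribosomal protein genes), and Atp5g1 and Atp5g2 did not pass the test. Of the Atp5g2 windows 87.4% occur in other genes, so its level is uncertain.

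Compared per kilobase of the principal coding transcript, the 5 subunits of the F1 head of the ATP synthase differed in mRNA level. In EpiSC DMSO libraries Atp5b had 913 ± 24.5 CPM per kilobase and Atp5a1 365 ± 5.08, against 192 ± 3.37 for Atp5c1, 139 ± 3.89 for Atp5d and 181 ± 24.8 for Atp5e (SD, n = 2). In TSC DMSO libraries they had 842 ± 27.0, 481 ± 28.4, 259 ± 6.50, 139 ± 4.02 and 138 ± 7.64 CPM per kilobase in the same gene order (SD, n = 2). In XEN DMSO libraries the levels were 483 ± 55.5, 279 ± 40.6, 135 ± 24.99, 70.9 ± 10.5 and 141 ± 34.6 CPM per kilobase (SD, n = 3). Of these 5, the beta and alpha subunits, which are present in several copies per enzyme, were the highest in each line, and gamma (Atp5c1), delta (Atp5d) and epsilon (Atp5e), present singly, were lower. Among these, Atp5c1 and Atp5e lay within their spread of each other in EpiSC and XEN, and Atp5d and Atp5e in TSC. Atp5b and Atp5a1, both present in several copies, also differed from each other in each line. Levels per kilobase depend on the length used. Atp5e has 421 bases in the principal transcript, 1697 in the longest and 1756 in the union of its exons. For Atp5b the principal transcript has 1916 bases and the union 4237. The orders given here are for the principal transcript only.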

How the data were processed

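Total RNA of 14 libraries was sequenced from a stranded total RNA kit, per the labels' protocols. The authors deposited whole-number counts per gene, made with STAR and featureCounts on GRCm39 per the submitters' processing notes; versions, annotation and strand setting are not given in the sources used here. Identifiers were named with GENCODE M21 (GRCm38), so no coordinates of the counting are given; 3281 of 55416 had no name. Lengths, exon junctions and shared windows come from that annotation. Counts were fitted with edgeR 4.0.16 in R 4.3.3 (TMM, filterByExpr with minimum counts of 10 and 15, quasi-likelihood F test, 6 groups of 14 libraries together, Benjamini-Hochberg over 18430 genes, adjusted p under 0.05), and the fit was tested on simulated data. DESeq2 1.42.0, other scalings, no filter, the replicate block, single lines and leaving out each library were alternatives. Same-numbered XEN libraries deviated together over all genes (correlations 0.220, 0.376 and 0.337), so the number was taken to pair them. TSC and EpiSC numbers were not shown to pair. Groups were taken from the sample labels. Named members were those called (up to 10 per direction), the extremes by line and complex, the smallest p per complex and line, and members fixed by role. One member of complex I is not reported by name here. Members and lists were chosen with earlier results of these data known. Depth covers counting error only: totals were 6826496 to 21097380 counts.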

Additional observations from a re-analysis of the deposited data

How the results depend on the processing

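Counts are of members called lower unless said. Shares of all tested genes called are given for the main fit only, so a count under another setting has no such share beside it. With the replicate number as a block, there were 7 in XEN, 15 in TSC, 28 in EpiSC, 40 in the mean over lines and 3 for the EpiSC minus XEN difference. With single lines the count was 1 in XEN with the replicate block, 46 in TSC (41 with the replicate block) and 46 in EpiSC (52 with the replicate block). DESeq2 gave 5, 3, 15, 32 and 1 for XEN, TSC, EpiSC, the mean and EpiSC minus XEN. Without the low-count filter EpiSC had 8. TSC and EpiSC libraries share only a replicate number: their same-number correlations were -0.00269 and -0.0120.

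Scaling to ribosomal protein genes left 1 in EpiSC (median -0.094) and 6 in the mean, and gave medians of -0.082 in TSC, 0.013 for TSC minus XEN (reversed) and -0.038 for EpiSC minus XEN. Between lines it gave 0 higher, 67 lower and a median of -1.05 for TSC against XEN, 3, 52 and -0.72 for EpiSC against XEN, and 33, 1 and 0.32 for EpiSC against TSC. Nuclear protein-coding genes alone gave a median of -0.10 for TSC against XEN. The ribosomal scaling reversed 28 members called higher in TSC against XEN and 19 in EpiSC against XEN. Those named by rule were, in TSC against XEN, Cyc1 (-0.082), Ndufc2 (-0.053), Sdha (-0.37), Atp5d (-0.095), Sdhb (-0.63), Uqcrfs1 (-0.094), Uqcrc1 (-0.51), Cox5a (-0.36), Atp5a1 (-0.28), Atp5b (-0.27) and Atp5g3 (-0.61). In EpiSC against XEN they were Sdha (-0.037), Sdhc (-0.41), Uqcrfs1 (-0.0025), Uqcrc1 (-0.24), Cox5a (-0.0060), Atp5a1 (-0.40), Atp5g3 (-0.051) and Cox7b (-0.15). The cause was not tested for any of these.

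Leaving out 1 library gave 0 to 1 higher and 0 to 11 lower in XEN (median -0.15 to 0.05), 0 to 1 lower in TSC (-0.24 to -0.18), 0 to 15 in EpiSC (-0.29 to -0.21), and 0 to 1 higher and 8 to 41 lower in the mean (-0.20 to -0.13). Medians ran from -0.25 to -0.06 for TSC minus XEN and from -0.27 to -0.10 for EpiSC minus XEN. Between lines it gave 26 to 32 higher and 18 to 33 lower for TSC against XEN (-0.05 to 0.09), 29 to 32 and 14 to 29 for EpiSC against XEN (-0.077 to 0.17), and 8 to 19 and 4 to 14 for EpiSC against TSC (0.03 to 0.09). Where a group is left with 1 library, that library is assumed to vary like the other groups. In the mean over lines Sdhb, Ndufv1, Ndufb6, Sdha and Cyc1 stayed called under each of 20 alternatives. XEN libraries had the lowest total counts, and the part of depth in the calls was not tested.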
